A study of Mus musculus with 6 samples.

Results

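Nodal, Lefty and FGF4 signals are the growth factor signals best known from the early embryo and from pluripotent stem cells. The 10 genes described were chosen by name from 23406 gene symbols: the ligands Nodal, Gdf3 and Fgf4, the co-receptor Tdgf1, the secreted inhibitors Lefty1 and Lefty2, and the receptors Acvr1b, Acvr2b, Fgfr1 and Fgfr2. All 10 were found and all 10 passed the filter for testing, which asked for at least 1 FPKM in at least 2 of 6 libraries. FPKM is the number of sequenced fragments scaled to transcript length and library total, so levels of different genes can be set side by side.

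The cells were mouse embryonic fibroblasts that carried OSKM, the reprogramming factors Oct4, Sox2, Klf4 and Myc, and total RNA was sequenced at day 7 of reprogramming. The groups differ in the alleles of Adar, which encodes the RNA-editing enzyme ADAR1, and in treatment. WT was Adar1 Fl/Fl with vehicle (Veh, 2 libraries), KO was Adar1 Fl/Fl with 4OHT (2 libraries), HET was Adar1 Fl/E861A with vehicle (1 library) and MUT was Adar1 Fl/E861A with 4OHT (1 library). Every group thus carried at least 1 floxed (Fl) allele, and WT stands for floxed cells without 4OHT. 4OHT commonly switches on an inducible Cre recombinase that cuts out floxed DNA. The labels name no Cre driver, and no library analysed here combined 4OHT with cells free of a floxed Adar allele. 4OHT and loss of Adar therefore cannot be told apart. In MUT the floxed allele would be lost too, which leaves the E861A allele, known to lack editing activity. The labels do not say that replicates were separate cultures, so each p-value reflects the scatter of these libraries alone, which may be technical.

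The targeted gene, Adar, had 19.6 and 19.5 FPKM in the WT libraries, 34.2 and 31.3 in KO, 17.0 in HET and 33.0 in MUT, so it was higher in the 4OHT libraries. Which exons are deleted is not in the labels, so a value for the whole gene does not check them, and KO and MUT below mean the libraries so labelled. Libraries of a pair had a Pearson r of 0.995 (WT) and 0.995 (KO) across 12266 tested genes. Of these genes, 57.7% were called in KO against WT (limma, Benjamini-Hochberg adjusted p under 0.05), 29.5% higher and 28.2% lower. All 11 pluripotent cell markers fell, with summed levels of 395 and 343 FPKM in WT, 15.3 and 7.52 in KO, 371 in HET and 31.2 in MUT. Of 9 fibroblast markers 8 fell, with sums of 3791 and 3408 FPKM in WT, 692 and 576 in KO, 3979 in HET and 1672 in MUT. These are bulk values: fewer cells of a type and less RNA per cell cannot be told apart.

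Nodal is a ligand of the TGF-beta superfamily that binds activin receptors together with a co-receptor of the Cripto family, and the signal runs through SMAD2 and SMAD3 to the nucleus. Lefty proteins are secreted antagonists that are themselves induced by the pathway, a feedback loop that limits the range of Nodal in the embryo. FGF4 is secreted by pluripotent cells and acts through FGF receptors, with heparan sulfate as a cofactor, on the RAS, MEK and ERK cascade; in the mouse blastocyst it promotes primitive endoderm, and in embryonic stem cells it primes for differentiation.

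Promoter sequence is shown for 3 members that fell and, for contrast, Fgfr2, which rose. Each run is the 250 bases upstream of the RefSeq start site on GRCm38.p6, written 5′ to 3′ on the strand of the gene, and 6 of the 10 members had an entry. Capitals mark matches to the motifs described after the sequences.
Nodal (chr10:61417722-61417971, plus strand): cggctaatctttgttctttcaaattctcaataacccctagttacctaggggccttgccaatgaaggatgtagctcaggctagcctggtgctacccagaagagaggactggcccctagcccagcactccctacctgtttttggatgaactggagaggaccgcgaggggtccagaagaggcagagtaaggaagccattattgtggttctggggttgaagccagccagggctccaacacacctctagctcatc
Tdgf1 (chr9:110946159-110946408, minus strand): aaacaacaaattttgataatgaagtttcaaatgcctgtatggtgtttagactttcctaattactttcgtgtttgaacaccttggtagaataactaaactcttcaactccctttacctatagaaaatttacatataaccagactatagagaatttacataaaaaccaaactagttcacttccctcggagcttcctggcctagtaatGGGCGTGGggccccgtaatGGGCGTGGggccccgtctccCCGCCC
Fgf4 (chr7:144861136-144861385, plus strand): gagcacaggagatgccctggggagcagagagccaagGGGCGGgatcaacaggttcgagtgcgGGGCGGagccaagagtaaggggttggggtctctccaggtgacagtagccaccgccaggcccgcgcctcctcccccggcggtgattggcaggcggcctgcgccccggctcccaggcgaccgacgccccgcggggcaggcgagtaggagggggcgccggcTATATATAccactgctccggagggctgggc
Fgfr2 (chr7:130266809-130267058, minus strand): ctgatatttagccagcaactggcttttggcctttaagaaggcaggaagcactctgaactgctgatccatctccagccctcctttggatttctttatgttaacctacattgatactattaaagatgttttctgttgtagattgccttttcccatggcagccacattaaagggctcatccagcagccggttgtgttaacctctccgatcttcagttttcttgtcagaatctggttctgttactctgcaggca
The motifs searched on both strands included the octamer ATGCAAAT of OCT factors (in 1.6% of 32817 windows of this length), the core CATTGT of SOX factors (10.7% of windows), and CCACCC of KLF factors (28.1%) beside the longer GGGCGTGG (4.79%). The GC box was read as GGGCGG (32.7%) and the TATA box as TATAAA (12.4%) or, more loosely, as TATATA (5.25%). The Nodal pathway was covered by TGTGGATT for FOXH1 (0.719%), by the palindrome GTCTAGAC for SMAD (0.168%) and by the short SMAD box CAGAC (42.2%), and the E-box by CACGTG (6.02%). The SMAD box, found among the runs shown only in Tdgf1 (at -113), was not capitalised, and GGGCGTGG was added after the Tdgf1 sequence was seen. The Tdgf1 window held GGGCGTGG in 2 copies, from -45 to -38 and from -26 to -19 counted from the start site, within a repeated stretch, and the reverse complement of the GC box from -6 to -1. The Fgf4 window held GGGCGG at -214 and at -188, and 2 overlapping TATATA matches at -30 and -28. No capitalised motif matched in the Nodal or the Fgfr2 window, which says only that these letters are not there. The windows of Fgf4 (71.2% GC) and Tdgf1 (42% GC) lay on either side of the median of 52.4%, so the 3 members shown that fell shared neither base composition nor a capitalised motif. GGGCGG or its reverse complement was also in the Acvr1b and Acvr2b windows, and hence in 4 of the 5 windows of members that fell. The Acvr1b and Acvr2b windows were 78.8% and 72.8% GC, above the median of 52.4%. The share of 32.7% over all windows was not matched for base composition. The deposited Fgf4 row begins 190 bases before the RefSeq start site and so overlaps the window.

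Setting KO against WT addresses how the levels of these signals at day 7 of reprogramming differ between Adar1 Fl/Fl cells with 4OHT and with vehicle. Of the 10 members, 8 fell (28.2% of all tested genes fell) and 2 rose (29.5% of all tested genes rose). 7 of the 8 fell by at least 1 on the log2 scale, against 9.38% of all tested genes. All log2 values are differences of log2(FPKM + 1), on which the change of low genes is understated, so the fold between mean FPKM is given beside them. The median difference of the members was -1.32, beside 0.02 over all tested genes. The 8 falls and the rise of Fgfr2 held under all 13 alternatives tried, but their sizes on the log2 scale depended on the pseudocount: the lowest and highest values over the alternatives were -3.93 and -1.12 for Nodal, -4.57 and -2.10 for Fgf4, -4.49 and -1.14 for Lefty2, -1.34 and -0.33 for Lefty1, and -2.33 and -0.51 for Acvr2b.

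**Figure D1:**
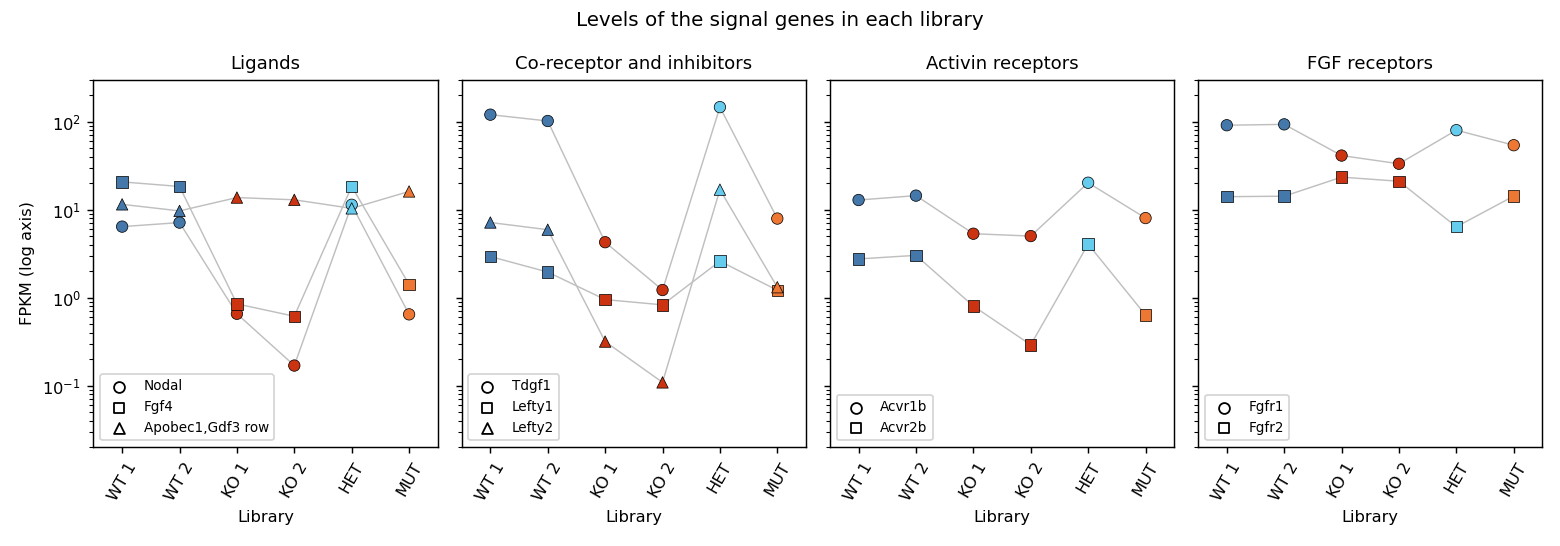
Level of each of the 10 genes in each library, in FPKM on a log axis; a symbol is 1 library, colours are groups, and grey lines join the values of 1 gene. Nodal, Fgf4, Tdgf1 and Lefty2 are low in KO 1, KO 2 and MUT, while the Apobec1,Gdf3 row is higher there and Fgfr2 is highest in KO 1 and KO 2.

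Among the ligands, Nodal (ENSMUSG00000037171.6, row at chr10:61417972-61425337, mm10) had 6.42 FPKM in WT 1, 7.13 in WT 2, 0.655 in KO 1, 0.169 in KO 2, 11.4 in HET and 0.645 in MUT. The 3 vehicle libraries lay above the 3 4OHT libraries with a wide gap, and HET was the highest. The mean was 6.77 ± 0.51 FPKM in WT and 0.412 ± 0.344 in KO (SD, n = 2 each, as in all means below), 16.4-fold lower, and the log2 difference was -2.48 (SE 0.16, limma adjusted p = 7.02e-07). At an estimated depth of 18400000 to 21100000 fragments in WT and KO, the KO values correspond to about 25.8 and 7.47 fragments, so the fold of Nodal is less certain than its direction.

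Fgf4 (ENSMUSG00000050917.5, chr7:144861196-144865246) stood at 20.7 and 18.4 FPKM in WT, 0.849 and 0.614 in KO, 18.4 in HET and 1.41 in MUT. HET lay at the level of the WT libraries, and MUT was the highest of the 4OHT libraries. Fgf4 fell 26.7-fold in KO, a log2 difference of -3.57 (SE 0.12, limma adjusted p = 1.11e-08).

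Gdf3, a Nodal-related ligand of pluripotent cells, has no value of its own. The deposited row (chr6:122577792-122610071) names both Apobec1, which encodes a cytidine deaminase, and Gdf3 (ENSMUSG00000030117.5), although their GENCODE genes are separated by 2958 bases. The row stood at 11.5 and 9.68 FPKM in WT, 13.7 and 12.9 in KO, 10.3 in HET and 16.1 in MUT, so the 4OHT libraries were the higher ones. It rose by a log2 of 0.31 in KO (SE 0.11, limma adjusted p = 0.0341). Its adjusted p was 0.253 when WT 2 was left out, 0.0994 when KO 1 was left out and 0.108 when low genes were not filtered, so the call did not hold there. The share of each gene in the row cannot be told apart.

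Tdgf1, which encodes the co-receptor Cripto (ENSMUSG00000032494.12, chr9:110939608-110946158), had the largest difference of the 10. Its level was 120 and 102 FPKM in WT, 4.27 and 1.22 in KO, 146 in HET and 7.92 in MUT. The KO libraries differed from each other by far less than their gap to WT, and MUT lay above both. The mean was 111 ± 13.0 FPKM in WT and 2.74 ± 2.15 in KO, 40.5-fold lower (log2 difference -5.03, SE 0.30, limma adjusted p = 3.24e-07). The processed pseudogene Tdgf1-ps1 is 98.8% identical to Tdgf1 over 512 aligned bases, and 12.5% of the 50-base windows of the Tdgf1 transcript occur in it unchanged, so some reads could be shared.

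The inhibitors are neighbours on chromosome 1, 35918 bases apart. Lefty2 (ENSMUSG00000066652.5, chr1:180893119-180899102) stood at 7.15 and 5.92 FPKM in WT, 0.317 and 0.109 in KO, 16.9 in HET and 1.31 in MUT. It was high in HET, 2.59-fold above the WT mean, and under 1 FPKM in KO. Lefty2 fell 30.7-fold in KO (log2 difference -2.64, SE 0.14, limma adjusted p = 1.59e-07), where its KO values correspond to about 14.7 and 5.67 fragments.

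Lefty1 (ENSMUSG00000038793.8, chr1:180935039-180938401) stood at 2.93 and 1.95 FPKM in WT, 0.950 and 0.828 in KO, 2.60 in HET and 1.21 in MUT. The vehicle libraries again lay above the 4OHT libraries, with a small gap between WT 2 and MUT. Lefty1 fell 2.75-fold (log2 difference -0.85, SE 0.15, limma adjusted p = 0.000861). The ratio of Lefty2 to Lefty1 was 2.44 and 3.03 in WT, 0.333 and 0.131 in KO, 6.50 in HET and 1.08 in MUT, so that Lefty2 was the more abundant of the pair in vehicle and the less abundant in KO. The longest protein-coding transcripts of the pair are 91.9% identical over 1153 aligned bases, and 17.9% of the 50-base windows of Lefty1 occur in Lefty2, so some of their reads could be shared.

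Acvr1b, the type I receptor ALK4 (ENSMUSG00000000532.11, chr15:101173996-101213684), stood at 12.9 and 14.4 FPKM in WT, 5.33 and 5.01 in KO, 20.2 in HET and 8.03 in MUT. Acvr2b, a type II receptor for activin and Nodal (ENSMUSG00000061393.14, chr9:119402171-119442126), stood at 2.75 and 3.02 FPKM in WT, 0.802 and 0.291 in KO, 4.06 in HET and 0.634 in MUT. Both were highest in HET and separated vehicle from 4OHT without overlap. Acvr1b fell 2.64-fold (log2 difference -1.25, SE 0.11, limma adjusted p = 4.42e-06) and Acvr2b 5.29-fold (log2 difference -1.35, SE 0.16, limma adjusted p = 5.68e-05). The gene Gm47320 overlaps Acvr2b on the other strand, and Gm16159 overlaps Fgfr1 likewise. The use of strand in counting is not given in the sources used here, so these reads cannot be told apart. Mir6962 overlaps Acvr1b on the same strand. The GENCODE gene of Fgfr2 extends to chr7:133123350, far beyond the deposited row, and overlaps 69 genes. How many of them overlap the row itself was not examined.

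The FGF receptors moved in opposite directions. Fgfr1 (ENSMUSG00000031565.18, chr8:25518738-25575718), the receptor typical of mesenchymal and pluripotent cells, stood at 91.2 and 93.3 FPKM in WT, 41.2 and 33.3 in KO, 80.1 in HET and 54.0 in MUT. It fell 2.48-fold in KO (log2 difference -1.29, SE 0.11, limma adjusted p = 5.21e-06) and was the most abundant member there, behind Tdgf1 in WT. Fgfr2 (ENSMUSG00000030849.18, chr7:130162451-130266808), whose splice forms serve epithelial and mesenchymal cells, stood at 14.0 and 14.2 FPKM in WT, 23.4 and 21.0 in KO, 6.39 in HET and 14.3 in MUT. It rose 1.57-fold in KO (log2 difference 0.62, SE 0.10, limma adjusted p = 0.000436). MUT was above WT 2 by less than the spread of the KO pair, so the separation of vehicle from 4OHT rests on a narrow margin for Fgfr2.

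Ratios within a library put these changes side by side and do not depend on its scaling. Fgfr1 exceeded Fgfr2 by 6.49-fold and 6.55-fold in WT, 1.76-fold and 1.58-fold in KO, 12.5-fold in HET and 3.79-fold in MUT. Fgfr2 was 0.679 and 0.775 times the level of Fgf4 in WT, 27.6 and 34.3 times in KO, 0.348 times in HET and 10.1 times in MUT, so the ligand was above this receptor in vehicle and far below it with 4OHT. The ratio of Tdgf1 to Nodal varied less, from 6.51 and 7.22 in KO to 18.7 and 14.3 in WT, with 12.9 in HET and 12.3 in MUT.

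**Figure D2:**
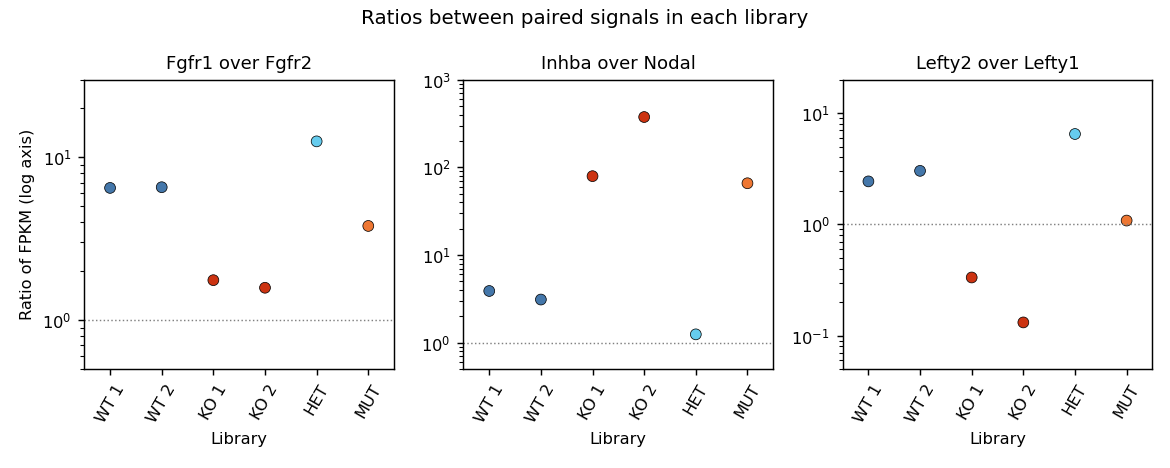
Ratio of FPKM between pairs of signals in each library, on log axes; a point is 1 library and the dotted line marks equal levels. Fgfr1 over Fgfr2 is lowest in KO (1.76 and 1.58), Inhba over Nodal is highest in KO (79.4 and 375), and Lefty2 over Lefty1 lies under 1 in KO only. Nodal, Lefty1 and Lefty2 were under 1 FPKM in KO, so the size of their ratios there is uncertain.

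The order of the levels changed with them. In WT it ran Tdgf1, Fgfr1, Fgf4, Fgfr2, Acvr1b, the Apobec1,Gdf3 row, Nodal, Lefty2, Acvr2b and Lefty1, from the highest to the lowest FPKM. Neighbours whose WT libraries overlapped were Fgfr2 and Acvr1b, Nodal and Lefty2, and Acvr2b and Lefty1. In KO the order was Fgfr1, Fgfr2, the Apobec1,Gdf3 row, Acvr1b and Tdgf1, followed by Lefty1, Fgf4, Acvr2b, Nodal and Lefty2, each of which overlapped the next. Those 5 were under 1 FPKM in both KO libraries. Tdgf1 was also the highest and Lefty1 the lowest in HET, and Fgfr1 the highest and Acvr2b the lowest in MUT.

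MUT against HET has 1 library a group and no replicate check, so the differences are described without a test. A difference of at least 1 on the log2 scale was found lower in MUT for 6 of the 10 members, against 8.77% of all tested genes, and higher for 1, Fgfr2, against 4.93%. Nodal was 17.6-fold lower in MUT than in HET, Tdgf1 18.5-fold, Fgf4 13.0-fold and Lefty2 12.9-fold. Acvr2b was 6.40-fold and Acvr1b 2.52-fold lower. Lefty1 was 2.14-fold lower and Fgfr1 1.48-fold lower, log2 differences of -0.70 and -0.56 that stay under the size set. Fgfr2 was 2.23-fold higher in MUT and the Apobec1,Gdf3 row 1.56-fold. With a pseudocount of 0.1, Lefty1 reached that size (-1.04) and 7 members were lower. With a pseudocount of 5, Acvr1b, Acvr2b and Fgfr2 were under that size too (-0.95, -0.69 and 0.76), which left 4 lower and 0 higher. Every member differed in the same direction as in KO against WT, and the 3 vehicle libraries lay all above the 3 4OHT libraries for 8 members (29.3% of all tested genes did) and all below for 2 (30.6% did).

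**Figure D3:**
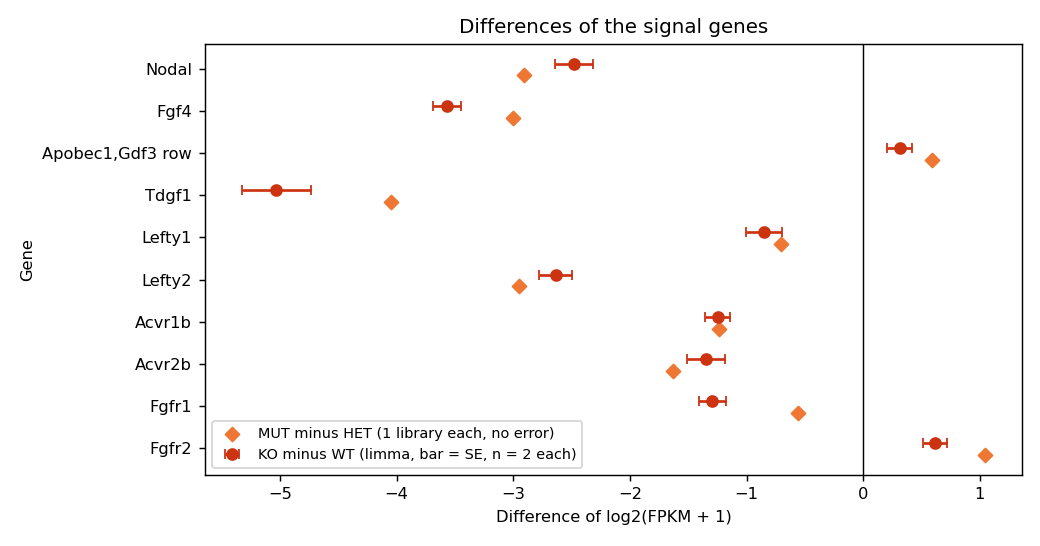
Difference of log2(FPKM + 1) for each gene: circles are KO minus WT with limma's SE (2 libraries each), diamonds are MUT minus HET (1 library each, without error). Tdgf1 has the largest difference in both (-5.03 and -4.05); Fgfr1 has diamonds and circles farther apart (-0.56 and -1.29) than Acvr1b (-1.23 and -1.25).

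The test of the difference between these effects, KO minus WT against MUT minus HET, called 4.01% of all tested genes and 0 of the 10 members (limma over 6 libraries, where HET and MUT are assumed to vary like WT and KO). At an unadjusted p under 0.05 (limma) there were 3, Fgf4 (0.0216), Fgfr1 (0.00384) and Fgfr2 (0.0348). Of all 12266 tested genes, 874 were higher and 1244 lower at that unadjusted threshold. Fgfr1 came nearest, with a difference of -0.73 (95% interval -1.17 to -0.30, adjusted p = 0.0729). It was called with quantile normalization (adjusted p = 0.0405), without KO 1 (adjusted p = 0.000111) and without KO 2 (adjusted p = 0.0302); without a KO library, every lone library takes the spread of the WT pair. For Fgf4 the difference was -0.56 (95% interval -1.02 to -0.10, adjusted p = 0.188), for Tdgf1 -0.98 (-2.13 to 0.16, adjusted p = 0.362) and for Nodal 0.43 (-0.20 to 1.05, adjusted p = 0.485). Tdgf1 was called without KO 1 (difference -1.61), and Lefty2 with a pseudocount of 5 (0.65 in place of 0.32, adjusted p = 0.0151). With a pseudocount of 0.1 the Lefty2 difference turned to -0.90 (adjusted p = 0.421), so its sign depended on the pseudocount. Over all genes this test depended on each library: 376 genes were called lower with all 6, but 249 when WT 1 was left out, 206 for WT 2, 742 for KO 1 and 628 for KO 2. The interval of Acvr1b ran from -0.42 to 0.40, so a difference of 1 on the log2 scale in either direction lies outside it. The same holds for the Apobec1,Gdf3 row (-0.71 to 0.15), Lefty1 (-0.74 to 0.44), Lefty2 (-0.21 to 0.84), Acvr2b (-0.35 to 0.91) and Fgfr2 (-0.82 to -0.04). It does not hold for Nodal, Fgf4, Tdgf1 and Fgfr1. Of the 9 fibroblast markers 7 were called in the same test, and of the 11 pluripotent cell markers 2, against 4.01% of all tested genes. None of the tested primitive endoderm, trophoblast or macrophage markers was called. For the fibroblast marker Postn, a matrix protein, MUT stood at 54.5 FPKM beside 9.73 and 9.73 in KO and 411 in HET. The part of the fibroblast markers in the values of Fgfr1, which fibroblasts express, was not tested.

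HET and WT are both vehicle groups but differ in an allele and in the number of libraries. Lefty2 in HET was 1.25 above the WT mean on the log2 scale, a distance that 0.75% of all tested genes reached while lying above both WT libraries. Fgfr2 was 1.03 below it, reached by 1.72% of genes. Nodal was 0.67 and Acvr1b 0.54 above the WT mean, while Fgf4 (-0.08) and the Apobec1,Gdf3 row (-0.03) were level with it. These differences were described from 1 HET library and not tested.

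The other genes of both pathways were taken from lists by role, and 80 of 103 were tested; 28 rose (29.5% of all tested genes), 25 fell (28.2%) and 27 were not called. Their median log2 difference was 0.11, beside 0.02 over all tested genes.

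Of 7 other Nodal and activin ligands and convertases, 2 rose, 2 fell and 3 were not called. Inhbb, the beta B subunit of activin, rose from 11.9 ± 1.23 to 16.1 ± 1.35 FPKM. Inhba, the beta A subunit of activin A, which signals through the same receptors, stood at 25.0 and 22.2 FPKM in WT, 52.0 and 63.4 in KO, 14.1 in HET and 42.5 in MUT. It rose 2.45-fold (log2 difference 1.25, SE 0.12, limma adjusted p = 8.41e-06). Inhba exceeded Nodal by 3.89-fold and 3.11-fold in WT and by 79.4-fold and 375-fold in KO, with 1.24-fold in HET and 65.9-fold in MUT. Nodal was under 1 FPKM in KO and MUT, about 25.8 and 7.47 estimated fragments in KO and 20.7 in MUT. The size of these ratios is therefore uncertain in KO and MUT. Pcsk6 and Pcsk5, convertases that cleave Nodal-type precursors, fell, with log2 differences of -0.95 and -0.57, although Pcsk5 lost its call with quantile normalization (adjusted p = 0.148), which left 1 fall. Without WT 2, 1 gene of the list rose.

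Of 7 co-receptors and extracellular inhibitors, 5 were tested, 2 rose and 2 fell. Fst, which encodes the activin antagonist follistatin, went from 53.1 ± 3.27 to 22.9 ± 1.37 FPKM, and the related antagonist Fstl3 from 3.50 ± 0.28 to 8.07 ± 2.03 FPKM. Tmeff1, a membrane protein known to bind Cripto, rose by a log2 of 0.53, and Bambi, a decoy receptor, fell from 3.79 ± 0.04 to 2.91 ± 0.09 FPKM. With any 1 of the 4 libraries left out, or with quantile normalization, Bambi was not called and 1 gene of the list fell. Cfc1, the other Cripto-family co-receptor, and Cer1, a secreted Nodal inhibitor, were under 1 FPKM in every library. Acvr1c, the type I receptor ALK7, was also under 1 FPKM throughout.

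The intracellular parts of the SMAD branch were covered by 13 SMAD2/3 transducers and feedback genes. Of these, 9 rose (29.5% of all tested genes did) and 1 fell, with 3 not called and a median of 0.38. Without WT 1, 6 of the 13 rose. Pmepa1, a feedback inhibitor induced by TGF-beta and activin, went from 21.9 ± 2.01 to 41.5 ± 0.53 FPKM and the ubiquitin ligase Smurf1 from 16.9 ± 0.78 to 31.9 ± 0.74 FPKM. The member that fell was Foxh1, the DNA-binding partner of SMAD2 at Nodal targets, at 3.23 and 1.58 FPKM in WT, 0.181 and 0.110 in KO, 2.94 in HET and 0.305 in MUT; its log2 difference of -1.53 ran from -3.29 to -0.52 over the alternatives. Among mesendoderm targets of Nodal, Mixl1, Gsc, T, Lhx1 and Foxa2 were under 1 FPKM in every library, and Eomes was not called.

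On the FGF side, 5 of 17 other secreted ligands were tested, of which 3 rose and 1 fell. Fgf7, a ligand of the epithelial form of FGFR2, went from 22.3 ± 1.70 to 40.7 ± 1.14 FPKM, with 37.1 in HET and 77.1 in MUT. Fgf16 rose from 0.369 ± 0.185 to 1.58 ± 0.07 FPKM, Fgf10 rose from 5.05 ± 0.01 to 7.35 ± 1.18 FPKM, and Fgf18 fell from 3.79 ± 0.92 to 1.11 ± 0.11 FPKM. Fgf3, Fgf5, Fgf8 and 8 more ligands were under 1 FPKM in every library. Of the other receptors, Fgfr3 and Fgfrl1, a receptor without a kinase domain, fell (log2 differences -1.05 and -1.03), and Fgfr4, Kl and Klb were under 1 FPKM throughout. Among 16 heparan sulfate genes 2 rose and 5 fell (3 without WT 2), with 9 not called and a median of -0.06. Gpc1, a glypican, and Ext1, a heparan sulfate polymerase, rose, from 46.1 ± 4.76 to 79.9 ± 8.65 FPKM and from 41.2 ± 1.08 to 56.6 ± 0.81 FPKM. The proteoglycan Gpc3 fell from 40.9 ± 0.01 to 14.0 ± 0.23 FPKM, and Hs6st1, a sulfotransferase, and Sdc1, a syndecan, fell with log2 differences of -0.83 and -0.81; Hs6st2 and Sulf2 fell by 0.31 and 0.32.

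Of 17 transducers of the FGF pathway from the receptor to ERK, 9 rose (7 to 10 over the alternatives, the fewest without WT 1), 2 fell (1 without WT 1) and 6 were not called, with a median of 0.28; the falls were Gab1, an adaptor, and the row that names Pygo2 and Shc1. Of all tested genes, 29.5% rose and 28.2% fell. Among the transducers that rose was Map2k1, which encodes MEK1, at 47.4 ± 1.48 FPKM in WT and 84.2 ± 7.48 in KO. Another was the adaptor Frs2, at 13.7 ± 0.49 FPKM in WT and 24.1 ± 1.10 in KO. Of 12 feedback inhibitors and targets, 10 fell, 0 rose and 2 were not called, with a median of -0.91; at an unadjusted p under 0.05 (limma) the number that rose was also 0. Spry4, a feedback inhibitor of receptor tyrosine kinase signalling, fell from 19.7 ± 0.88 to 4.33 ± 0.46 FPKM (log2 difference -1.96, SE 0.11, limma adjusted p = 1.94e-07). The ETS factors Etv4 and Etv5, known targets of FGF signalling, fell from 37.1 ± 3.95 to 9.06 ± 0.78 FPKM and from 73.5 ± 4.45 to 23.1 ± 2.22 FPKM. In MUT all 12 were lower than in HET, 8 of them by at least 1 on the log2 scale, against 8.77% of all tested genes. These genes also answer to other receptor tyrosine kinases, and the part of Fgf4 or Fgfr1 in their levels was not tested.

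**Figure D4:**
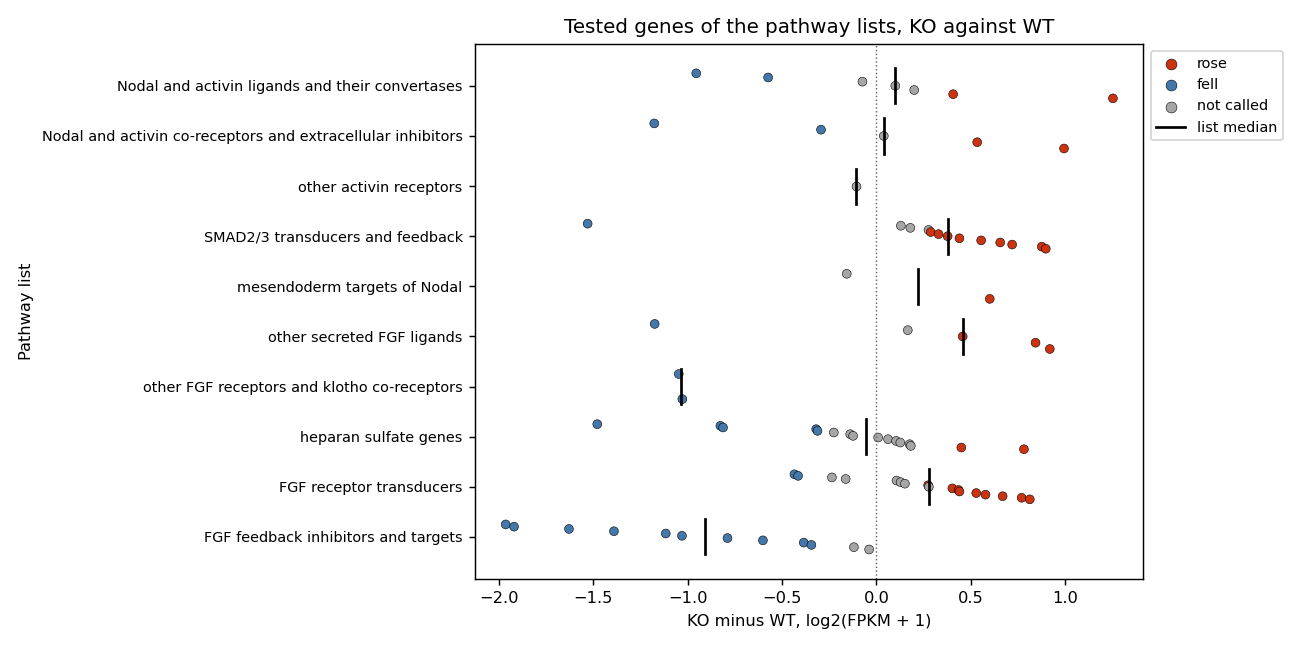
Difference of log2(FPKM + 1), KO minus WT, for each tested gene of the pathway lists; colours give the limma call and black bars the median of a list. Feedback inhibitors and targets of FGF lie to the left (10 of 12 fell), SMAD2/3 genes and FGF transducers mostly to the right (9 of 13 and 9 of 17 rose). Of all tested genes, 28.2% fell and 29.5% rose.

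Markers of other cell types were read beside the members. Of 7 primitive endoderm markers, the type that FGF4 promotes in the blastocyst, 3 were tested; Gata6 and Dab2 rose, Pdgfra, also a fibroblast marker, fell, and Sox17 was at 0 in every library. The summed list lay at 41.2 and 39.4 FPKM in WT, 30.8 and 29.9 in KO, 56.7 in HET and 44.0 in MUT. Without Pdgfra, left out after the values were seen, the sum was higher in KO, at 15.7 and 16.1 FPKM in WT, 22.2 and 21.4 in KO, 19.3 in HET and 28.5 in MUT. Of 5 trophoblast markers 3 were tested: Gata3 rose, Tfap2c fell and Eomes was not called. The list summed to 21.0 and 19.7 FPKM in WT, 11.7 and 10.9 in KO, 19.0 in HET and 7.57 in MUT. Tfap2c made up most of the WT sums (15.7 and 14.3 FPKM) and little of the KO sums (0.527 and 0.182). Its share was likewise large in HET (14.9) and small in MUT (0.565). Gata3 went the other way, from 3.70 and 3.65 FPKM in WT to 10.2 and 9.91 in KO. The fall of the trophoblast sum thus rests on Tfap2c and does not describe the list as a whole. Of 5 macrophage markers, Ptprc, Adgre1 and Csf1r were under 1 FPKM in every library, and Laptm5 fell by 2.47 on the log2 scale. Without Cd68, whose row names 3 genes, the list summed to 24.1 and 20.5 FPKM in WT, 4.00 and 3.62 in KO, 38.0 in HET and 7.47 in MUT. Most of each sum was Laptm5, at 23.4 and 19.9 FPKM in WT, 3.31 and 2.83 in KO, 36.7 in HET and 5.88 in MUT. The fall of the sum is thus that of Laptm5. The part of any of these lists, of the pluripotent markers or of the fibroblast markers in the members' levels was not tested.

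The genes nearest to each member were found by the Euclidean distance between centred log2(FPKM + 1) profiles over the 6 libraries, among 11231 candidates. Over 6 libraries such likeness is a description only. Nearest to Fgf4 were Dnmt3b, Zscan10 and Tfap2c (distances 0.24, 0.26 and 0.29), and nearest to Tdgf1 were Pou5f1, Utf1 and Tdh (0.24, 0.26 and 0.70). Pou5f1 encodes Oct4, an introduced factor as well as a gene of the cells, and stood at 222 and 175 FPKM in WT, 8.03 and 2.50 in KO, 272 in HET and 12.8 in MUT. Nodal lay closest to Plet1, Apcdd1 and Dact2 (0.13, 0.28 and 0.33).

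Lefty2 lay closest to Crip1, Laptm5 and Clec11a (0.15, 0.56 and 0.56) and Lefty1 to Tnfaip8l1, Cdh24 and Hdac6 (0.14, 0.18 and 0.18). This distance also counts the size of a change, and Lefty1 changed less than Lefty2 and Nodal. That their nearest genes differ therefore says little about likeness of pattern. Crip1, with the high HET value of Lefty2, stood at 34.3 and 30.1 FPKM in WT, 4.24 and 3.48 in KO, 72.5 in HET and 8.44 in MUT. The receptors Acvr1b and Acvr2b were nearest to Them6, Smpdl3b and Haus5, and to Dok2, Pak4 and Hook1. Fgfr1 was nearest to Timp4, Il11ra1 and Ifitm10, Fgfr2 to Blnk, Vnn1 and Qpct, and the Apobec1,Gdf3 row to Psme1, Cxcl16 and Tmem98. No gene was among the 3 nearest of more than 1 member, and how often this holds for other sets of genes was not tested.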

How the data were processed

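The authors deposited 1 table of FPKM per library, per the file headers, written with decimal commas. RNA was extracted with TRIzol and depleted with Ribo-Zero, per the labels' protocols. TopHat2 2.1.1, Bowtie2 2.3.0 and Cufflinks 2.2.1 are named with mm10 (GRCm38) in the submitters' processing notes, without roles; annotation, strand and scaling: not given in the sources used here. Of 24879 rows, 1021 have no gene name and were dropped, 561 name several genes and were kept, and for 314 symbols on several rows the highest mean was used. The dropped rows held 9.62% and 10.2% of all FPKM in WT, 11.4% and 14.2% in KO, 8.26% in HET and 8.55% in MUT.

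Groups were read from the sample titles. Two-sided moderated tests with a mean-dependent prior (limma 3.58.1, eBayes with trend, under R 4.3.3) were run on log2(FPKM + 1) over the 12266 genes at 1 FPKM or more in at least 2 libraries. The steps of low values in 3850 single-transcript genes, with fragments assumed to be 200 bases long, gave a rough depth of 15300000 to 21100000 fragments; no reads were recovered. In simulations of KO against WT, all changed genes were found (100% at a log2 of 1) beside 7 false calls in 12266 genes. For the difference between effects these were 97% and 11. The simulations drew normal scatter smoothed from the WT and KO pairs, gave HET and MUT that same scatter, and changed few genes, all upward. They therefore do not show how the tests fare where many genes change in both directions or the scatter differs. Genes named from a list are the 3 of largest change and those under 1 FPKM throughout; Inhbb, Bambi, Fgf10, Gpc1, Ext1, Hs6st2, Sulf1, Sulf2, Gab1, Shc1 and Fgf21 were named after their values were seen, and some listed genes are not reported here. Members and lists were chosen with earlier results of these data known. Identifiers are from GENCODE release M 21, transcripts were compared with Biopython 1.88, and promoters are RefSeq's. Alternatives covered pseudocounts, the filter, scaling, the choice of rows, the samples fitted, a replicate block and leaving out each library.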

Additional observations from a re-analysis of the deposited data

Results flagged for a closer look

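Of the 80 tested genes of the pathway lists 3, and none of the 10 members, differed between their KO and MUT effects in the test of that difference (limma over 6 libraries, 1 library each for HET and MUT). Of all tested genes 4.01% did, so the count of the lists is near that share. Sulf1, which removes sulfate from heparan sulfate, had a difference of -0.83 (adjusted p = 0.0195): the level was 43.7 and 44.9 FPKM in WT, 49.0 and 48.0 in KO, 21.1 in HET and 42.0 in MUT. Hs6st2, a heparan sulfate sulfotransferase, had a difference of -0.90 (adjusted p = 0.0362), at 53.6 and 66.8 FPKM in WT, 48.4 and 47.6 in KO, 29.7 in HET and 45.0 in MUT. Fst had a difference of -0.75 (adjusted p = 0.0413), at 55.4 and 50.8 FPKM in WT, 22.0 and 23.9 in KO, 21.7 in HET and 15.9 in MUT. In all 3 genes HET lay under both WT libraries. When low genes were not filtered, none of the 3 passed (adjusted p = 0.122, 0.229 and 0.176). Sulf1 and Fst were not called without WT 1 (0.0601 and 0.128) or without WT 2 (0.0736 and 0.0815), nor Hs6st2 without WT 2 (0.0961). Fst was also lost with a pseudocount of 0.1 (adjusted p = 0.0525).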

How the results depend on the processing

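The call of the Apobec1,Gdf3 row in KO against WT was the 1 call of a member that was lost, which left 1 member higher with no filter on low values, and 1 to 2 when single libraries were left out. For the difference between effects, members called higher were 1 with a pseudocount of 5 (Lefty2, 0.65, adjusted p = 0.0151), and members called lower were 1 with quantile normalization and 0 to 2 without single libraries (Tdgf1 and Fgfr1 without KO 1). Differences between effects that were not called turned sign for Lefty2 with a pseudocount of 0.1 (-0.90), for Lefty1 without single libraries (-0.36 without WT 2 to 0.056 without WT 1) and for Acvr1b with a pseudocount of 5 (0.080), with quantile normalization (0.053) and without single libraries (-0.090 without WT 1 to 0.065 without WT 2). In KO against WT, the uncalled value of Acvr2a turned to 0.059 with 4OHT set against vehicle over all 6 libraries and ranged from -0.22 without WT 1 to 0.0011 without WT 2, and that of Eomes turned to 0.22 with quantile normalization. For the difference between effects, genes called were 116 higher and 376 lower, and 187 higher with quantile normalization. In that same test, 80 to 450 genes were higher and 206 to 742 lower without single libraries. With no filter, limma called 0 higher and 0 lower in that test, where 1255 and 1559 of 17762 genes had an unadjusted p under 0.05. The cause was not tested. For MUT against HET, a pseudocount of 5 left 0 members higher, and 287 genes higher and 468 lower by at least 1. A limma test that borrows the spread of the WT and KO pairs for the lone libraries called 2 members higher and 8 lower, and 2569 genes higher and 2740 lower. With a replicate block, 4122 genes were higher and 3837 lower in KO against WT and the members' calls did not change; the 2 pairs share only a number (correlation of their deviations 0.18). At the estimated depth, values under 1 FPKM rest on few fragments.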

Other observations

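Fgfr1 has a second deposited row with the same coordinates, which the highest-mean rule left aside. Its level was 6.22 and 6.06 FPKM in WT, 2.11 and 1.93 in KO, 5.04 in HET and 3.08 in MUT, so the vehicle libraries lay above the 4OHT libraries in this row too. Fgf21, a hormone-like FGF, was at or above 1 FPKM in MUT alone, at 1.53, and was not tested.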
